A study of Sus scrofa with 8 samples.

Results

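Genes of the circadian clock were examined in the longissimus dorsi, a back muscle, of Korean native pigs aged 7 months and Yorkshire pigs aged 6 months. The 8 genes asked about were PER1, NFIL3, PER2, CLOCK, ARNTL, NR1D1, CRY1 and DBP, and a member was measured if the platform annotation gave a probe set exactly that 1 symbol. Of the 8 genes, 4 had such a probe set, namely PER1 with 2 and DBP, ARNTL and NFIL3 with 1 each, so 5 of 24123 probe sets belong to the clock. PER2, CLOCK, NR1D1 and CRY1 had none and were not analysed here. The group was chosen by the breed difference of PER1 and NFIL3 in these same arrays, so the breed values of its members below are a description and support nothing.

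Total RNA from 4 samples per breed, called pigs 1 to 4 here, went onto 1 Affymetrix pig array each in one colour, so that the muscle transcriptomes of both breeds could be compared. According to the labels these are biological replicates, the animals were kept under like conditions, and the muscle was cut from between ribs of the back. Breed and age cannot be told apart. The hour at which the muscle was taken, on which clock transcripts depend in any tissue, is not stated in the labels. The signal is a brightness in arbitrary units, and the number of arrays limits its precision. In a piece of whole muscle, fewer cells of a type and less RNA per cell cannot be told apart.

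The circadian clock is a feedback loop of transcription factors that runs in nearly every cell, muscle fibres included. ARNTL (also called BMAL1) pairs with CLOCK and activates genes with E-boxes, among them the PER and CRY genes, NR1D1 and DBP, and the PER and CRY proteins then repress the pair. NR1D1 represses ARNTL and NFIL3, so that in a running clock the E-box genes and the genes repressed by NR1D1 peak at opposite times of day. DBP activates and NFIL3 represses the same D-box sites. In the arms compared below, the PER arm therefore held PER1 and DBP, and the ARNTL arm held ARNTL and NFIL3. PER1 is also induced directly by glucocorticoids and cyclic AMP.

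The tissue label fitted its markers, since all 8 muscle fibre genes measured, among them ACTA1 and CKM, had mean signals of 21821 to 90418. All 4 clock genes were well measured: no array had a signal below 91.5, the 95th percentile of 23 negative control probe sets. The other PER1 probe set was not measurable, with 3 of 4 Korean native pig arrays and 2 of 4 Yorkshire arrays below that level. Its signals were 173.7, 30.7, 30.8 and 13.0 in Korean native pigs 1 to 4 and 33.9, 27.4, 177.7 and 122.2 in Yorkshire pigs 1 to 4. It did not pass the filter on low signal, and PER1 below means the bright probe set.

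PER1, the E-box gene whose protein is part of the repressing complex, had signals of 4742, 6653, 6385 and 3832 in Korean native pigs 1 to 4. In Yorkshire pigs 1 to 4 they were 3473, 2909.6, 3499 and 1875. All Korean native pigs lay above all Yorkshire pigs, though Korean native pig 4 exceeded the highest Yorkshire array only narrowly. The means were 5403 ± 1346 against 2939 ± 759.9 (SD, n = 4), a difference of 0.88 on the scale log2(signal + 32) (SE 0.25, 95% interval 0.34 to 1.42), or 1.84-fold. Averaging the log2 values of both PER1 probe sets left a difference of 0.21.

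DBP, the E-box gene that activates D-box sites, had signals of 1658, 943, 561 and 302 in Korean native pigs 1 to 4. Those of Yorkshire pigs 1 to 4 were 618, 421, 399 and 460.1. The breeds overlapped, because Korean native pigs held both the highest and the lowest value, 5.49-fold apart, while the Yorkshire values lay within 1.55-fold. The difference was 0.60 (SE 0.41, 95% interval -0.29 to 1.48). Leaving out Korean native pig 1 took it to 0.21, and leaving out number 4 of that breed took it to 0.99.

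ARNTL, the activator, had signals of 184, 248, 566 and 599 in Korean native pigs 1 to 4, and of 264, 336, 369.5 and 639 in Yorkshire pigs 1 to 4. Both breeds spanned nearly the same range, and their means were 399 ± 214 and 402 ± 164 (SD, n = 4). The difference of -0.09 (SE 0.38, 95% interval -0.92 to 0.73) turned to 0.19 without Korean native pig 1, to 0.07 without Korean native pig 2 and to 0.14 without Yorkshire 4.

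NFIL3, the repressor of D-box sites, which also acts in immune cells, had signals of 249, 188, 389 and 1262 in Korean native pigs 1 to 4. Yorkshire pigs 1 to 4 had 802, 988, 939.8 and 1573. Only Korean native pig 4 reached the Yorkshire range, and the other 3 lay below it. The means were 522 ± 501 and 1076 ± 341 (SD, n = 4), a difference of -1.33 (SE 0.46, 95% interval -2.33 to -0.32), or 2.51-fold. Without Korean native pig 4 it was -1.86.

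**Figure D1:**
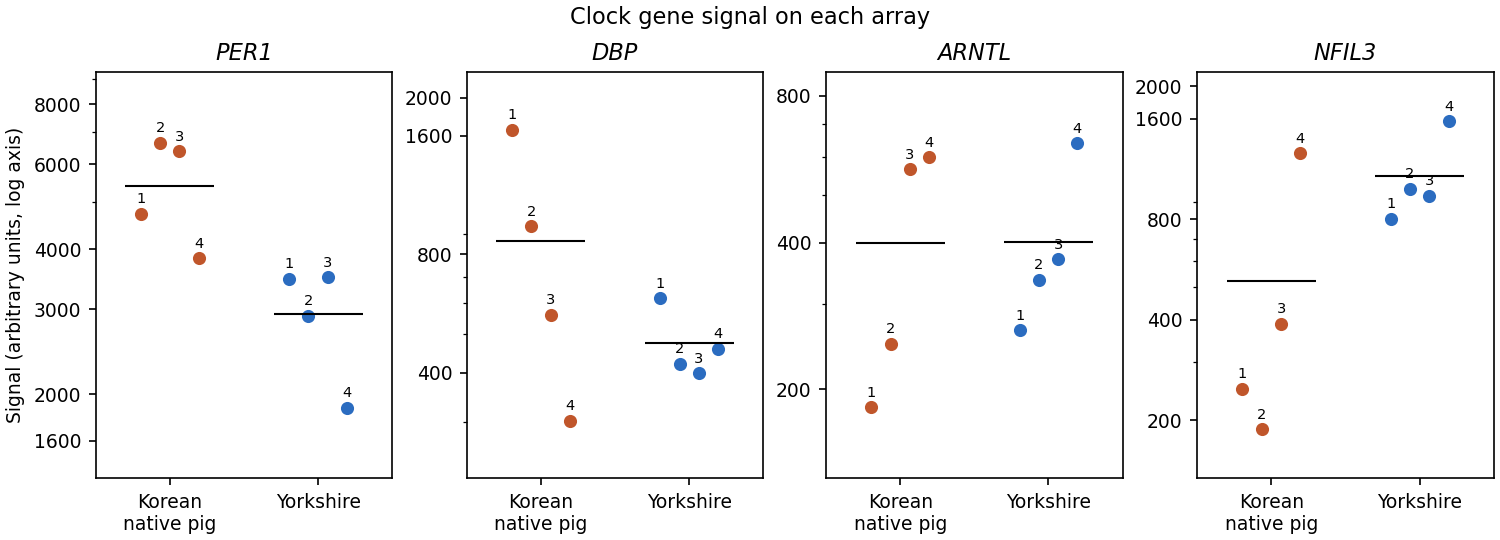
Signal of PER1, DBP, ARNTL and NFIL3 on each array, on a log axis that differs between panels; points are arrays labelled with their replicate number and bars are the arithmetic mean of 4 arrays per breed. PER1 does not overlap between breeds, ARNTL has the same mean in both, and Korean native pig 4 has the lowest DBP at 302 and an NFIL3 signal of 1262 within the Yorkshire range.

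Read from the fit over all probe sets, 0 of the 4 clock genes passed an adjusted p of 0.05, where the background was 0% of 5331 genes (limma, Benjamini-Hochberg adjustment over 14399 probe sets, adjusted p = 0.999 for each of the 4). At an unadjusted p under 0.05 there were 2 of the 4, PER1 and NFIL3, against 183 genes or 3.43% of all. In PER1 alone the breeds did not overlap, which held for 2.25% of all genes and, with Korean native pigs higher, for 1.14%. These counts use the contrast that chose the group. When log2 changes of 1 were simulated the test found 29.2% of them, and when they were 2 it found 78.2%, so that most differences as large as that of PER1 would be missed at this sample size. The simulated arrays held 200 changed probe sets in independent noise, while 0 passed here, so these shares may be too high for these data. The arrays fall into a brighter and a dimmer set by their hybridisation controls, and replicates 1 and 3 of each breed are bright and 2 and 4 dim, so that brightness follows the replicate number. Taken in the bright arrays alone and then in the dim ones, the difference was 0.65 and 1.10 for PER1, 0.92 and 0.27 for DBP, 0.06 and -0.24 for ARNTL, and -1.39 and -1.26 for NFIL3.

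Of 24 further clock genes listed, 7 were tested, and 0 passed in either direction. Their median difference was 0.21, against 0.00 (-0.00269) over all 5331 genes, and 5 of the 7 were above 0. The median was 0.05 when Yorkshire 3 was left out and 0.13 when number 3 of the Korean native pigs was. It stood at 0.34 and 0.35 when Korean native pig 1 or Yorkshire 4 was left out, and at 0.06 in the dim arrays alone. CRY2, a repressor that binds PER proteins, was at -0.29 (829, 760.1, 1020.5 and 865 in Korean native pigs 1 to 4, against 1047, 1078, 1176 and 961 in Yorkshire pigs). These ranges overlapped only through Korean native pig 3. USP2, a deubiquitinase whose gene is a clock output, was at 0.32, with 3227 to 4226 in Korean native pigs and 2255 to 3914 in Yorkshire pigs. Without Yorkshire 3 USP2 was at 0.19. RORA, the nuclear receptor that activates ARNTL in competition with NR1D1, was at 0.51, and BHLHE40, an E-box repressor, at -0.55, with a dimmer BHLHE40 probe set at -0.29. Dropping Yorkshire 3 or Korean native pig 3 left RORA at 0.20 or 0.25, and dropping Korean native pig 1 or Yorkshire 2 left BHLHE40 at -0.24 or -0.35. WEE1, a cell cycle kinase under E-box control, was at 0.34, and NAMPT, a clock-driven enzyme of NAD synthesis, at 0.21. WEE1 was at 0.03 without Yorkshire 4 and 0.59 without Yorkshire 3. NAMPT was at 0.05 when Yorkshire 3 was dropped, 0.10 or 0.12 when number 3 or 4 of the Korean native pigs was, 0.38 when their number 1 was and 0.35 when Yorkshire 4 was. The casein kinase gene CSNK1D, whose product phosphorylates PER proteins, was at 0.11, with other probe sets at 0.03 and -0.00 (-0.00144). The smallest unadjusted p of the 7 was 0.133, and each adjusted p was 0.999 (limma).

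**Figure D2:**
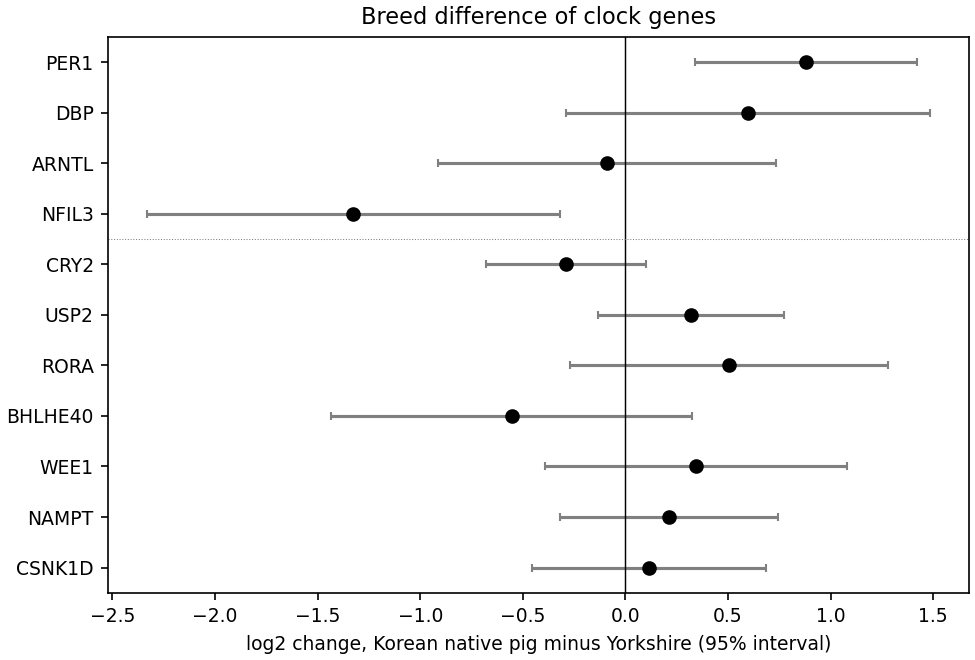
Difference on the log2(signal + 32) scale, Korean native pig minus Yorkshire, with the 95% interval of the limma fit on 4 arrays per breed; the 4 clock genes of the group stand above the dotted line and 7 further clock genes below it. The intervals of PER1 (0.34 to 1.42) and NFIL3 (-2.33 to -0.32) leave out 0 before any adjustment, and those of the other genes include it.

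Within breeds the clock genes differed in how much they varied between pigs. The standard deviation of log2 signal within breeds was 0.85 for NFIL3, 0.73 for DBP and 0.65 for ARNTL. These stand at percentiles 93.8, 89.0 and 84.4 of all 14399 probe sets tested. PER1, at 0.40, lay near the middle at percentile 51.2. CRY2 was among the steadiest probe sets, at 0.15 and percentile 2.38. RORA and BHLHE40 were again variable, at 0.60 and 0.70. Taken by breed, the standard deviation for DBP was 1.00 in Korean native pigs against 0.26 in Yorkshire pigs, and for NFIL3 1.13 against 0.41. For ARNTL it was 0.78 against 0.50, and for PER1 0.37 against 0.42. The spread of DBP and NFIL3 thus lay mostly in Korean native pigs, which weigh most in their correlations below.

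The variation between pigs of a breed is separate from the contrast that chose the group, and it was used to ask whether opposed clock arms move apart. Each gene's breed mean was taken off, and all 6 pairs of the 4 genes were correlated over the 8 arrays. The test was an exact two-sided permutation over the 576 orders within breeds, with a smallest possible p of 0.00174, adjusted over the 6 pairs. All 4 pairs from opposed arms had a negative r and both pairs within an arm a positive r. With the replicate number taken off too, 2 of these signs turned, that of PER1 with ARNTL to 0.12 and that of PER1 with DBP to -0.42, and PER1 with NFIL3 came to -0.03. The r was then -0.44 for DBP with ARNTL, 0.39 for ARNTL with NFIL3 and -0.89 for DBP with NFIL3. With breed and number both taken off, arrays of the same number deviate equally in opposite directions, so these r values rest on 4 points. With the breed mean alone taken off, none of the 6 pairs passed after adjustment, and 3 were at an unadjusted p under 0.05. The pairs share genes and arrays, so they are not separate observations.

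DBP and ARNTL stood in nearly opposite orders. In Korean native pigs the order of the 4 arrays by DBP was the exact reverse of their order by ARNTL, from 1658 against 184 to 302 against 599. In Yorkshire pigs the array with the most DBP, 618, had the least ARNTL, 264, but the array with the most ARNTL, 639, had a middling DBP of 460.1. The breed-centred r was -0.82 (exact permutation p = 0.0382, adjusted p = 0.0764) and rho -0.86 (exact permutation p = 0.0382, adjusted p = 0.115; n = 8). It was -0.70 without the 2 arrays farthest from the median of DBP, and -0.95 without Yorkshire 4, where it passed (adjusted exact permutation p = 0.0417). Of all genes tested, 0.769% had as low an r with DBP as ARNTL did.

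DBP and NFIL3, which act on the same sites in opposite directions, had an r of -0.82 (exact permutation p = 0.099, adjusted p = 0.148) and a rho of -0.76 (exact permutation p = 0.148, adjusted p = 0.221; n = 8). Without the 2 arrays farthest from the median of DBP the r was -0.67. Without Korean native pig 4, which combined the lowest DBP with the highest NFIL3 of its breed, it was -0.47. As low an r with DBP was held by 0.807% of genes.

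ARNTL and NFIL3, of the same arm, were high or low in the same pigs, with an r of 0.80 (exact permutation p = 0.0382, adjusted p = 0.0764) and a rho of 0.90 (exact permutation p = 0.0174, adjusted p = 0.104; n = 8). The r was 0.81 without the 2 arrays farthest from the median of ARNTL, and 1.26% of genes had as high an r with ARNTL. Yorkshire 4 had the highest signal of its breed for both genes, as did Korean native pig 4.

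PER1 was then set against the other 3. With NFIL3 its r was -0.72 (exact permutation p = 0.0243, adjusted p = 0.0764) and rho -0.69 (exact permutation p = 0.0972, adjusted p = 0.194; n = 8). This relation rests on Korean native pig 4 and Yorkshire 4, the arrays of lowest PER1 in each breed, since without them the r was -0.07. With ARNTL the r of PER1 was -0.48 (exact permutation p = 0.245, adjusted p = 0.294) and the rho -0.45 (exact permutation p = 0.312, adjusted p = 0.375; n = 8), and without the same 2 arrays it turned to 0.48. With DBP, of its own arm, the r was 0.26 (exact permutation p = 0.594, adjusted p = 0.594) and the rho 0.14 (exact permutation p = 0.786, adjusted p = 0.786; n = 8), turning to -0.59 without them. Whether the correlations of PER1 differ from those of DBP was not tested.

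**Figure D3:**
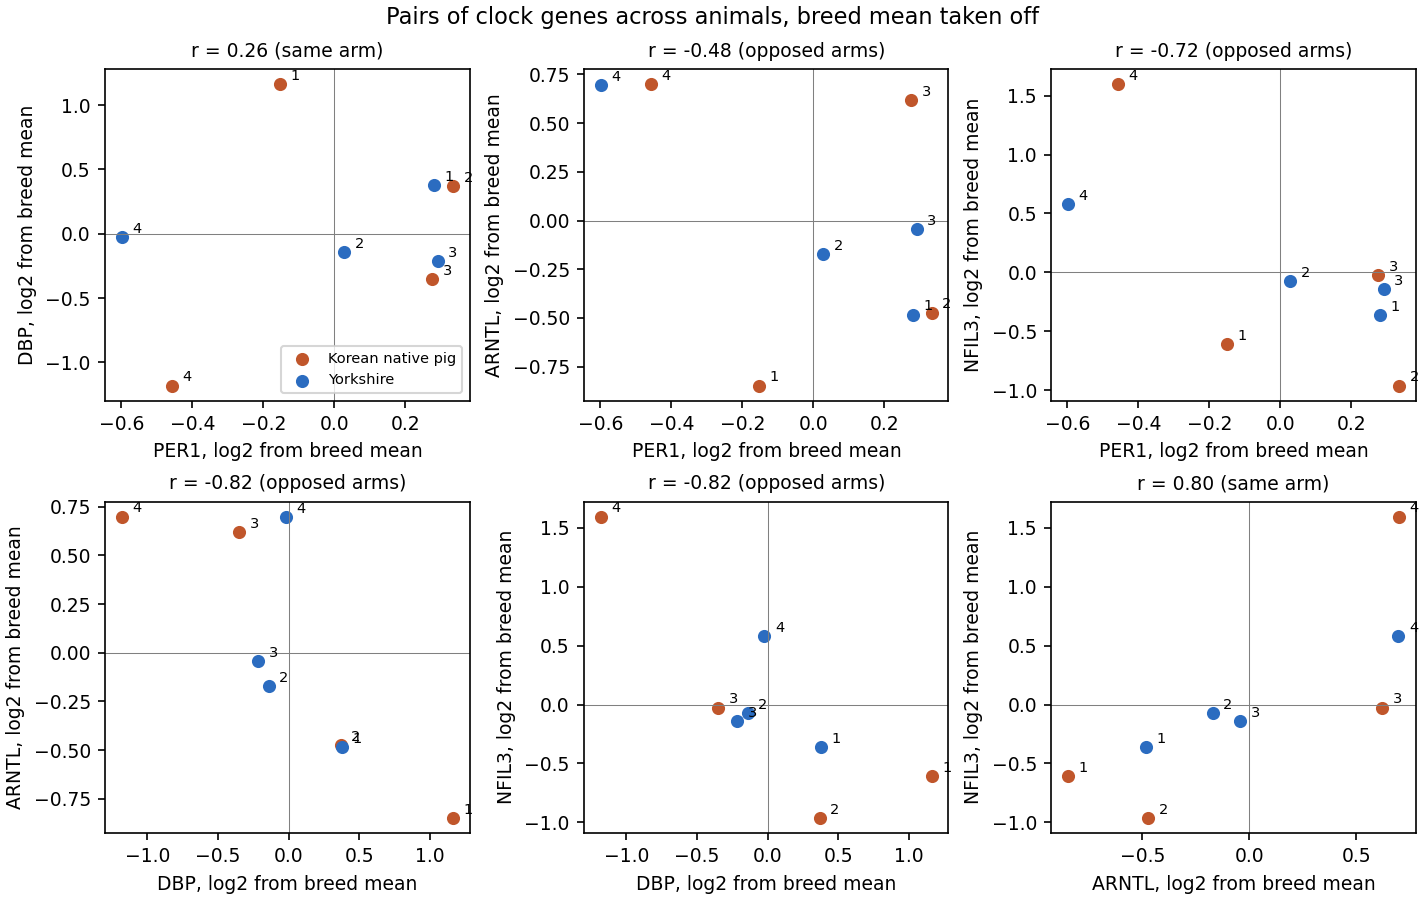
Each panel plots a pair of clock genes as log2(signal + 32) after the breed mean was taken off, with 1 point per array, coloured by breed and labelled with the replicate number. The panels of opposed arms slope downward (r from -0.82 to -0.48) and that of ARNTL and NFIL3 upward (r = 0.80), and in the PER1 panels the arrays numbered 4 of both breeds lie apart on the left.

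**Figure D4:**
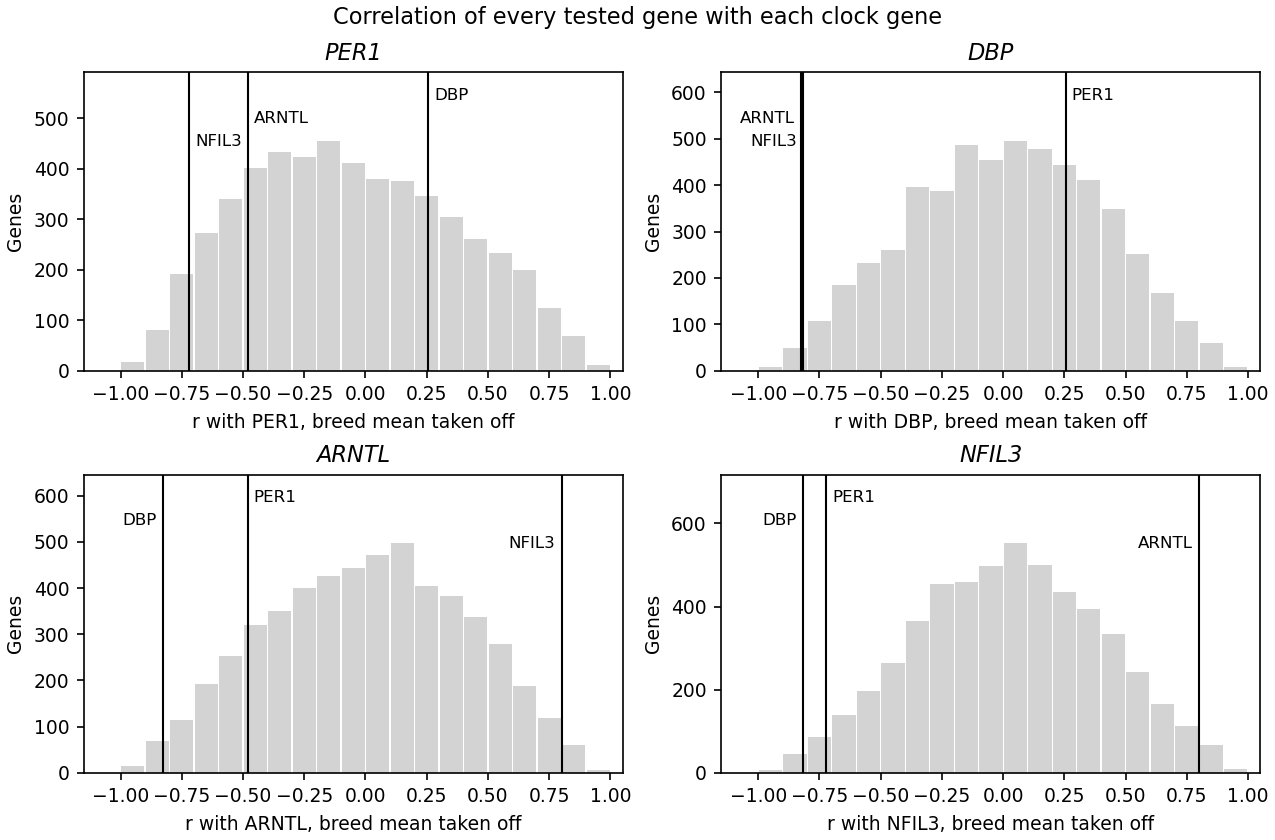
Histograms of the breed-centred r of all tested genes with PER1, DBP, ARNTL and NFIL3 over 8 arrays, in bins of 0.1, with vertical lines at the r of the other clock genes. ARNTL and NFIL3 lie in the lower tail of DBP, past its 5th percentile of -0.64, while the r of PER1 with DBP, 0.26, lies inside the bulk.

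As a description of the arms, each gene was centred on its mean over the 8 arrays and the mean of ARNTL and NFIL3 was taken from that of PER1 and DBP. This difference was 1.96, 1.79, 0.39 and -1.24 log2 units in Korean native pigs 1 to 4. It was 0.03, -0.66, -0.59 and -1.67 in Yorkshire pigs 1 to 4. The arms thus stood furthest apart, in opposite directions, in Korean native pig 1 and Yorkshire 4, and the breeds overlapped through Korean native pig 4. The breed means were 0.72 ± 1.49 and -0.72 ± 0.70 (SD, n = 4), equal in size by construction and 1.44 apart, and the spread among Korean native pigs alone, 3.20, was larger than that. With DBP and ARNTL only, leaving out the genes that chose the group, the breeds were 0.69 apart. Without Korean native pig 1 the breed difference was 0.21 for DBP and 0.19 for ARNTL, so that DBP and ARNTL no longer stood apart. No p-value is given for this score, because its members were chosen with results known.

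**Figure D5:**
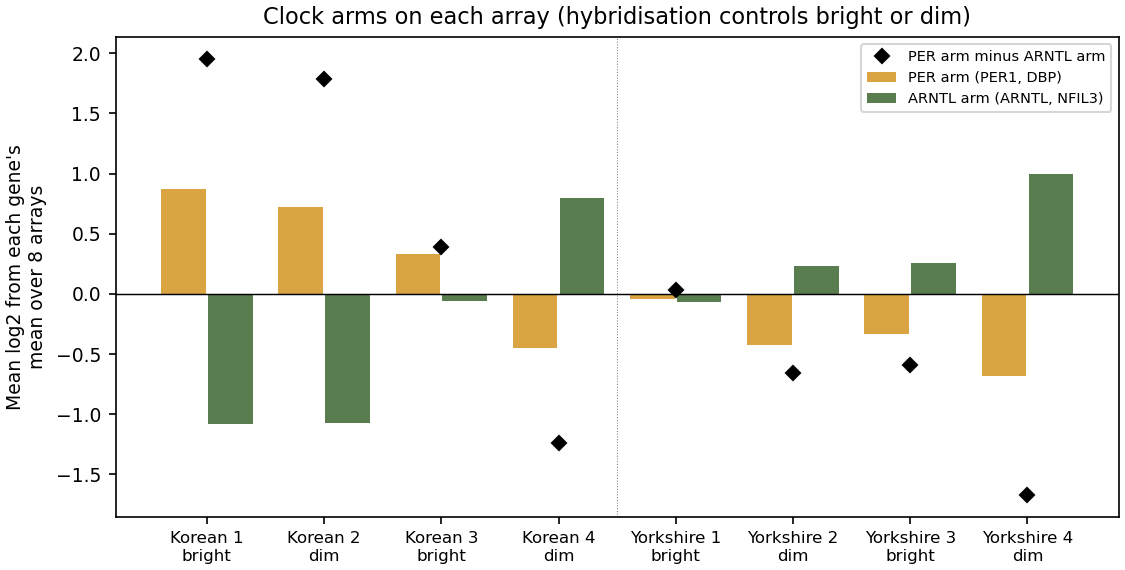
For each array, bars give the mean of PER1 and DBP and the mean of ARNTL and NFIL3, in log2 units from each gene's mean over the 8 arrays, and diamonds give the first minus the second; bright or dim marks the hybridisation controls. Diamonds run from 1.96 in Korean native pig 1 to -1.67 in Yorkshire 4, and both breeds hold values on either side of 0.

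Array measures and other cell types were set beside these relations. With the brightness of the hybridisation controls the breed-centred r was 0.67 for PER1, -0.52 for NFIL3, -0.39 for ARNTL and 0.39 for DBP. With the 3' to 5' ratio of control transcripts, a sign of RNA quality, it was 0.14, -0.28, -0.47 and 0.47 in the same order (8 relations, exact permutation, smallest adjusted p = 0.539). That ratio was highest in Korean native pig 1, at 3.33 log2 units, which also held the highest DBP and the lowest ARNTL. Yorkshire 3 was at 3.03, and the others lay between 0.87 and 1.73. Without Korean native pig 1 and Yorkshire 3 the breed difference was 0.14 for DBP and 0.18 for ARNTL. The r of PER1 with brightness rests on few arrays, since it was 0.07 without the 2 of most extreme PER1. Without Korean native pig 4, the r with brightness was -0.17 for NFIL3, -0.19 for ARNTL, -0.00 (-0.000873) for DBP and 0.54 for PER1. The rho values with brightness were 0.62, -0.45, -0.40 and 0.05, and those with the ratio -0.02, -0.14, -0.31 and 0.19 (smallest adjusted exact permutation p = 0.88). With brightness taken off as well as breed, the r was -0.80 for DBP and ARNTL, -0.78 for DBP and NFIL3, 0.77 for ARNTL and NFIL3, -0.66 for PER1 and NFIL3, -0.39 for PER1 and ARNTL, and 0.08 for PER1 and DBP. Within the bright or the dim arrays alone, 4 arrays are too few for a correlation.

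The summed signal of macrophage and lymphocyte markers was highest in Korean native pig 4, the array of highest NFIL3 in its breed. Of 8 markers listed, 6 had a probe set, of which CD163 and CD3E passed the filter on low signal, and the mean signal of 3, PTPRC, CD2 and CD79B, was below the 91.5 of the negative controls. CD163, CD3E, PTPRC and CD2 were each highest in Korean native pig 4. CD14 was highest in Yorkshire 4, at 272 against 131 in Korean native pig 4, and CD79B was lowest in Korean native pig 4, at 3.53. The summed signal of the 6 was 424 to 2142 in Korean native pigs and 721 to 1214 in Yorkshire pigs. For the correlations, the log2 signals of the 2 markers that passed the filter, CD163 and CD3E, were averaged, and the summed signal was not used. The breed-centred r of this average was 0.86 with NFIL3 (rho 0.83), 0.63 with ARNTL (rho 0.83), -0.78 with DBP (rho -0.88) and -0.43 with PER1 (rho -0.33; n = 8). Without Korean native pig 4 these r values were 0.51, 0.43, -0.43 and 0.04. CD3E, a chain of the T cell receptor complex, had signals of 98.8, 83.3, 157 and 502 in Korean native pigs 1 to 4 and 113, 138, 161 and 206 in Yorkshire pigs 1 to 4. CD3E was singled out after its values were seen: its breed-centred r was 0.99 with NFIL3 (rho 0.93), 0.78 with ARNTL (rho 0.90), -0.86 with DBP (rho -0.76) and -0.65 with PER1 (rho -0.57; n = 8 for each). With that array left out they were 0.96, 0.92, -0.61 and -0.45. CD163, the other marker tested, was at 0.65 with NFIL3 (rho 0.48), 0.42 with ARNTL (rho 0.40), -0.62 with DBP (rho -0.67) and -0.20 with PER1 (rho -0.19; n = 8), and without Korean native pig 4 at 0.22, 0.15, -0.27 and 0.24. Further leukocyte genes, LCK, BIN2 and JAML, were picked for a high r with NFIL3, of 0.91, 0.92 and 0.93 (rho 0.67, 0.62 and 0.86; n = 8). Without Korean native pig 4 those were 0.62, 0.60 and 0.78. Between breeds, CD3E differed by 0.11 (95% interval -0.87 to 1.08), against -1.33 for NFIL3. The part of immune cells in the NFIL3 signal was not tested.

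The markers of other cell types were set beside the 4 genes in the same way, as the mean log2 signal of the markers tested. Schwann cell and nerve markers had an r of 0.58 with NFIL3 (rho 0.71), 0.50 with ARNTL (rho 0.48), -0.40 with DBP (rho -0.38) and -0.61 with PER1 (rho -0.69; n = 8). Smooth muscle markers, averaged, went the other way in sign, at -0.48 with NFIL3 (rho -0.74), -0.56 with ARNTL (rho -0.69), 0.26 with DBP (rho 0.55) and 0.32 with PER1 (rho 0.52; n = 8). TAGLN, a marker in this list, went against the average, with a breed-centred r of 0.89 with NFIL3. Fibroblast markers were at -0.08 with NFIL3 (rho -0.07) and -0.51 with ARNTL (rho -0.10; n = 8), and without Korean native pig 4 at -0.78 and -0.81. Muscle fibre markers were at -0.23 with NFIL3 (rho -0.05; n = 8), and at 0.75 without that array. Red cell markers were at -0.55 with PER1 (rho -0.50; n = 8), and at -0.61 without Korean native pig 4. Their r with NFIL3, ARNTL and DBP lay between -0.11 and 0.17. Adipocyte markers ran from -0.28 with DBP to 0.37 with NFIL3, and endothelial markers from -0.42 with ARNTL to 0.23 with DBP. The summed signal is another measure, taken over all markers with a probe set, of which nerve had 3 and 2 of them tested. Summed nerve markers were 1070.4 to 1695 in Korean native pigs and 567 to 1327 in Yorkshire pigs. Those of smooth muscle were 6661 to 11047 and 7757 to 11627, and those of fibroblasts 9762 to 16799 and 12832 to 22630. The part of these cell types in the relations between clock genes was not tested.

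The other 7 clock genes were set against the 4 in the same way. Over 28 pairs, 0 passed by exact permutation, with 0 at an unadjusted p under 0.05 and a smallest adjusted p of 0.799 for r and 0.865 for rho. The highest r was that of NAMPT with ARNTL, 0.75 (rho 0.71, exact permutation p = 0.0747 and 0.101, n = 8), and the next in size that of NAMPT with NFIL3, 0.56 (rho 0.76). NAMPT was at -0.53 with DBP and -0.38 with PER1, so by sign it went with ARNTL and NFIL3. The further clock genes had not been assigned to an arm, so these signs are no test of the arms.

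Lists of genes that respond to glucocorticoids and to cyclic AMP, signals that act on PER1, were read from the same fit. Of 13 glucocorticoid response genes tested 0 passed, 7 were above 0, and the median was 0.08, with KLF15, a transcription factor of muscle metabolism, at 0.38 and PDK4, a kinase that shuts down pyruvate dehydrogenase, at -1.13. That median fell below 0 on leaving out any 1 array other than Yorkshire 3. It ran from -0.20 without Korean native pig 3 to 0.17 without Yorkshire 3. Of 9 cyclic AMP response genes 0 passed after adjustment, 4 were at an unadjusted p under 0.05 (3.43% of all genes), 5 were above 0, and the median was 0.09, with the repressor gene CREM at -2.11 (limma adjusted p = 0.281) and the nuclear receptor gene NR4A3 at -2.79 (limma adjusted p = 0.298). The remaining genes at an unadjusted p under 0.05 lay on either side of 0, EGR1 at 1.17, with a dimmer probe set at 0.31, and PPARGC1A at -0.96. Blocking on the replicate number took NR4A3 past the threshold (limma adjusted p = 0.00943) but not CREM (limma adjusted p = 0.126). In both genes all Korean native pigs lay below all Yorkshire pigs, which held for 1.11% of all genes, and further CREM probe sets were at -1.77 and 0.19. The median of the list was -0.26 to 0.27 with 1 array left out, -0.50 within the bright arrays and -0.83 with the dimmest 60% of probe sets left out. Between pigs of a breed, NR4A3 had an r of 0.76 with ARNTL, 0.70 with NFIL3, -0.73 with DBP and -0.31 with PER1 (rho 0.76, 0.62, -0.64 and -0.19; n = 8), while CREM was at 0.23, 0.32, -0.42 and 0.16 (rho 0.21, 0.14, -0.29 and 0.29). Without Korean native pig 4 the r values of NR4A3 were 0.66, 0.54, -0.56 and -0.01, and those of CREM -0.03, -0.28, -0.08 and 0.59, so that the sign for CREM turned with ARNTL and with NFIL3. These 8 values were computed after NR4A3 and CREM were known to have the smallest p of their list, and are given without a test.

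Over all 8 arrays, with the breed mean kept, the genes most like PER1 among 5327 others were HSPB11 (r = 0.93), LRIG1 (r = 0.92) and EXOSC7 (r = 0.92), and the most opposed was EML2 (r = -0.96). For NFIL3 they were POGLUT1 (r = 0.94), the smooth muscle marker TAGLN (r = 0.94) and MOSPD2 (r = 0.91), and the most opposed was GATA2 (r = -0.91). With the breed mean taken off, these r values were 0.80, 0.90, 0.77 and -0.88 for PER1 and 0.89, 0.89, 0.84 and -0.86 for NFIL3. They are the extremes of 5327 values, each over 8 arrays.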

How the data were processed

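The authors deposited a linear intensity for every probe set on each of 8 arrays. Per the submitters' processing notes GCOS 1.3 was used; for the summary of probes, the method is not given in the sources used. Each array had a trimmed mean near 500.1 (2% cut at each end), which shows a scaling by array before deposit, and changes are relative to the rest of the array. Gene symbols are those of GEO's platform annotation, of which 9989 of 10099 were found by gene number in the Sscrofa11.1 gene table, with 0 changed. No coordinates or sequences are given.

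Values were taken as log2(signal + 32), which understates changes where the signal is dim. Left out were 124 control probe sets and, of the others, the dimmest 40%. Breeds were compared with limma 3.58.1 in R 4.3.3 (intensity trend, no covariates), p-values adjusted over 14399 probe sets, changes given as Korean native pig minus Yorkshire. A gene is its brightest probe set with 1 symbol. The test was checked on simulated arrays with 200 changed probe sets in 10 runs, where 5.81% of calls were false. Associations between pigs used breed-centred values and exact permutation within breeds.

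Members, lists and tests were chosen with earlier results of these data known. Named were all members, the 6 further clock genes and 2 genes per response list of smallest p, and the genes most like PER1 and NFIL3. Outside this rule were CSNK1D, FKBP5, LCK, BIN2, JAML, EGR1, PPARGC1A and cell type markers, CD3E among them. Of these, FKBP5, LCK, BIN2, JAML, EGR1, PPARGC1A and CD3E were picked after their values were seen. Same-numbered arrays of both breeds deviated together at r = -0.04, 0.31, 0.10 and 0.05, so the numbers were not taken as pairs, although the brightness of the hybridisation controls follows them. In log2 units it was 13.42, 12.77, 13.50 and 12.5 in Korean native pigs 1 to 4. In Yorkshire pigs 1 to 4 it was 13.43, 12.81, 13.70 and 12.57. Exact permutation takes the arrays of a breed as exchangeable, and whether same-numbered arrays shared a run was not tested. Nothing but the words biological replicate says that arrays came from separate pigs, and p-values measure the spread between these samples.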

Additional observations from a re-analysis of the deposited data

How the results depend on the processing

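The count of clock members past the threshold was 0 under all 22 alternatives, as it was for the other clock genes under 21. With the replicate number as a block, 1 probe set passed over the whole series, NR4A3, which is also the 1 gene of the response lists then called; no clock member passed. The block took the breed-centred r to -0.42 for PER1 and DBP, 0.12 for PER1 and ARNTL, -0.03 for PER1 and NFIL3, -0.44 for DBP and ARNTL, -0.89 for DBP and NFIL3 and 0.39 for ARNTL and NFIL3. The cause was not tested.

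Of the 6 pairs, 0 to 1 passed when 1 array was left out, and 3 passed with the breed mean kept, which uses the contrast that chose the group. The r of PER1 and DBP ran from -0.29 without Korean native pig 4 to 0.60 without Korean native pig 1. The breeds' arm difference was 0.69 to 2.10 over all alternatives, and 1.03 to 2.10 with 1 array left out. The 0.69 is that of DBP and ARNTL alone, which was not run with arrays left out. ARNTL, at -0.32 to 0.19 with 1 array left out, changed sign without Korean native pig 1 (0.19), Korean native pig 2 (0.07), Yorkshire 4 (0.14) or both arrays of highest 3' to 5' ratio (0.18), and within the bright arrays (0.060). CSNK1D, at -0.00968 to 0.35 with 1 array left out, did so without Korean native pig 1 (-0.000783), Yorkshire 2 (-0.00968) or those 2 arrays (-0.069) and within the dim arrays (-0.20), and WEE1 within the bright ones (-0.13). PER1, DBP and NFIL3 kept their sign under all 22. Placing CRY1 in an arm was not run, since it had no probe set. Removing the brightness of the hybridisation controls from the correlations, and the arm difference within the bright (1.45) and the dim (1.44) arrays, were chosen after seeing the data.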

Other observations

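The spread of the glucocorticoid response genes between pigs of a breed was uneven. PDK4 had a within-breed standard deviation of 1.69 log2 units, at percentile 99.9 of all probe sets tested, where Korean native pigs had a signal of 9607 ± 9480 and Yorkshire pigs one of 11387 ± 4672 (SD, n = 4). FKBP5, a chaperone of the glucocorticoid receptor, was at 1.08 and percentile 98.2, while KLF15 was at 0.26 and percentile 19.4. These 3 were chosen after their values were seen.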
